A study of Mus musculus with 10 samples.

Results

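Midkine (Mdk), pleiotrophin (Ptn) and 6 of their known receptors or binding partners (Ptprz1, Alk, Sdc3, Sdc4, Lrp1 and Ncl) were examined in mouse prefrontal cortex by bulk RNA sequencing. The genes were picked by symbol, and all 8 were found among the 15914 genes listed and among the 14406 genes tested. The libraries came from wild-type C57BL/6J mice of 2 groups, 5 exposed to hypobaric hypoxia and then to photobiomodulation, a treatment with light (hypoxia + PBM), and 5 exposed to hypobaric hypoxia, the low oxygen of reduced air pressure, alone (hypoxia). All 10 libraries thus came from mice exposed to hypoxia, and animals without hypoxia were not analysed here. The labels give no age, dose of light or time, and do not state whether separate animals gave the separate libraries, so p-values measure the spread between libraries, which may be technical. This family was taken up with the comparison of hypoxia + PBM with hypoxia already known. The values of its 8 genes in that comparison are therefore a description, with no test read from them.

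Midkine and pleiotrophin are the members of one small family of secreted, heparin-binding growth factors. Both are abundant in the developing brain and act on neurite outgrowth, on neuron and glia survival and on vessels, and midkine is known to be induced after injury and ischaemia. They bind the sugar chains of proteoglycans. The chondroitin sulfate proteoglycan PTPRZ1 is a receptor tyrosine phosphatase that pleiotrophin inactivates, so that its substrates stay phosphorylated. The syndecans SDC3 and SDC4 carry heparan sulfate, ALK is a receptor tyrosine kinase, LRP1 is a large endocytic receptor, and nucleolin (NCL), chiefly a nucleolar protein, can bind both factors at the cell surface.

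Of these 8 genes, Mdk was the one that stood apart between the groups, at a mean of 8.99 ± 0.713 FPKM in hypoxia + PBM and 5.95 ± 0.472 FPKM in hypoxia (SD, n = 5 each). FPKM counts fragments relative to transcript length and to the depth of each library. Lrp1 and Ptn were higher by smaller amounts with overlapping groups, and Ptprz1, Alk, Sdc3, Sdc4 and Ncl differed by less than 7% of the hypoxia mean. In the limma-trend fit across all tested genes, 1 of the 8 genes, Mdk, had a Benjamini-Hochberg adjusted p under 0.05, where 2.85% of all tested genes did (1.15% higher and 1.7% lower). The median log2 change of the 8 genes was 0.043, against 0.00011 over all tested genes, and 6 of the 8 changes were positive. Each log2 change sets hypoxia + PBM over hypoxia, with 1 added to the FPKM, which understates the change of genes at low FPKM.

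The ligand Mdk measured 9.16, 9.96, 8.41, 8.17 and 9.23 FPKM in hypoxia + PBM replicates 1 to 5. It measured 5.99, 6.70, 5.98, 5.61 and 5.49 FPKM in hypoxia replicates 1 to 5. Every hypoxia + PBM library lay above every hypoxia library, with a gap between 8.17 FPKM, the lowest with light, and 6.70 FPKM, the highest without. Groups without overlap were found for 5.53% of all tested genes, 2.67% in the higher direction. Mdk was chosen on this comparison, so nothing is read from these shares. The log2 change of Mdk was 0.52 ± 0.060 (SE; 95% interval 0.39 to 0.65, for this gene alone), and the ratio of the mean FPKM was 1.51. On this scale 6 of the 14406 tested genes had a larger positive log2 change. In either direction, 0.347% of all tested genes changed by at least this amount. These ranks are likewise a description of a gene chosen on this comparison. Mdk rested on few reads, 280 to 342 per library in hypoxia + PBM and 179 to 245 in hypoxia. Counting error alone would give a coefficient of variation of 5.62% in hypoxia + PBM and 7.14% in hypoxia, where 7.94% and 7.92% were observed. The observed spread was thus near counting error in hypoxia and above it in hypoxia + PBM. In bulk tissue, fewer or more cells that make midkine and less or more midkine RNA per cell cannot be told apart.

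**Figure D1:**
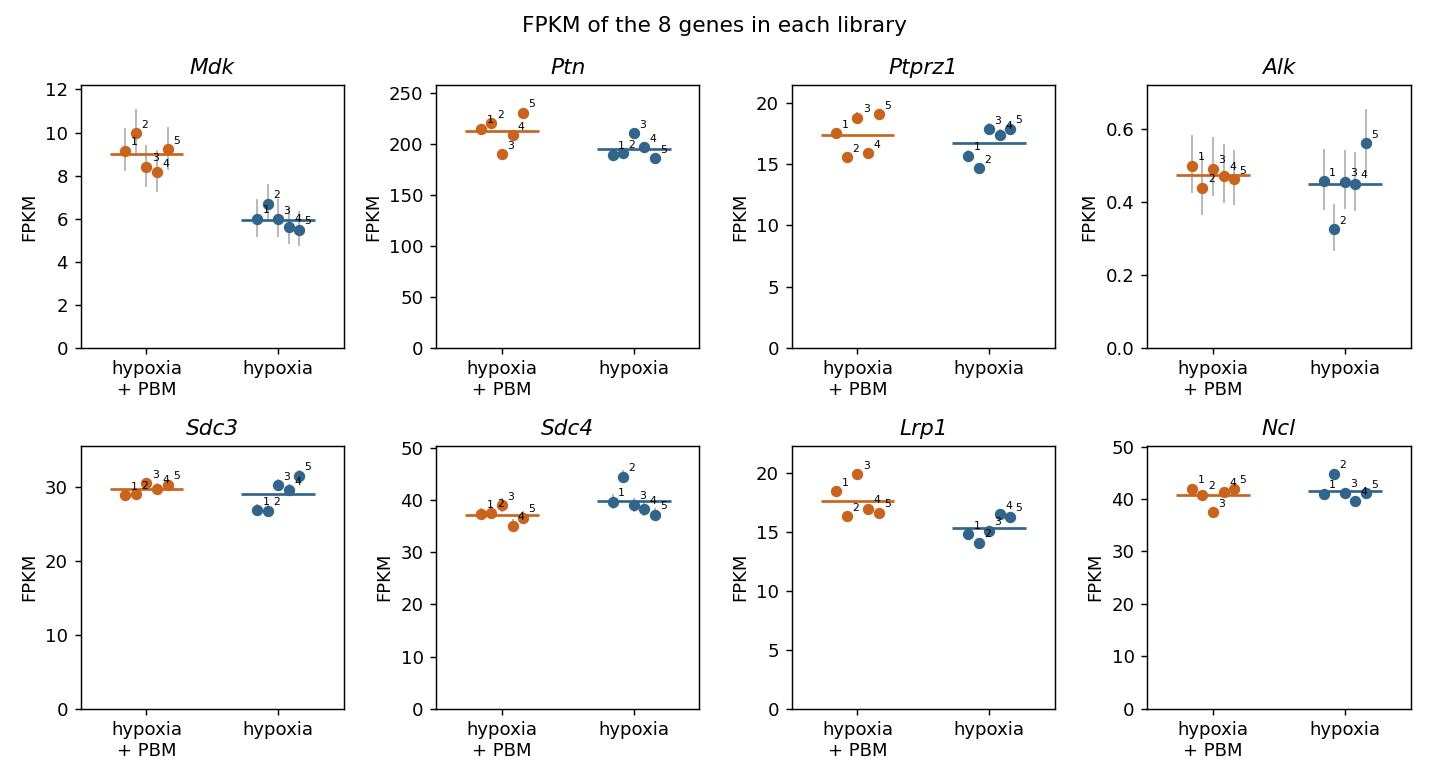
FPKM of each gene (vertical axes, each starting at 0) in the 5 hypoxia + PBM libraries (left, orange) and the 5 hypoxia libraries (right, blue); points are libraries with their replicate numbers, horizontal bars are group means and grey lines are exact 95% Poisson intervals that cover counting error only. Mdk lies between 8.17 and 9.96 FPKM in hypoxia + PBM and between 5.49 and 6.70 FPKM in hypoxia, while the groups overlap for the other 7 genes.

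Ptn, the second ligand, was the most abundant of the 8 genes. It measured 215, 220.3, 189.9, 209 and 231 FPKM in hypoxia + PBM replicates 1 to 5, and 189.8, 191, 211, 197 and 186 FPKM in hypoxia replicates 1 to 5. Replicates 1, 2 and 5 of hypoxia + PBM exceeded every hypoxia library, and replicate 3 of hypoxia + PBM, the lowest, lay within the hypoxia range. The log2 change was 0.13 ± 0.050 (SE; 95% interval 0.016 to 0.23, unadjusted), and Ptn did not pass the adjusted threshold. The coefficient of variation of Ptn was 7.16% in hypoxia + PBM and 4.96% in hypoxia, where counting error would give 0.907% and 0.984%, so its libraries spread more widely than counting error alone gives.

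Relative to Ptn, Mdk was more abundant in hypoxia + PBM than in hypoxia. Mdk made up 4.09%, 4.32%, 4.24%, 3.77% and 3.85% of the summed FPKM of Mdk and Ptn in hypoxia + PBM replicates 1 to 5, and 3.06%, 3.38%, 2.76%, 2.77% and 2.87% in hypoxia replicates 1 to 5. These shares did not overlap between groups (means 4.05% ± 0.242 and 2.97% ± 0.261, SD, n = 5 each). As Ptn makes up most of the sum, the share largely restates the difference of Mdk, which was chosen on this comparison. Ptn remained 22.1 to 25.5 times the level of Mdk in hypoxia + PBM and 28.6 to 35.2 times in hypoxia. The summed ligand level was 222 ± 15.7 FPKM in hypoxia + PBM and 201 ± 9.69 FPKM in hypoxia (SD, n = 5 each), with overlapping libraries.

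**Figure D2:**
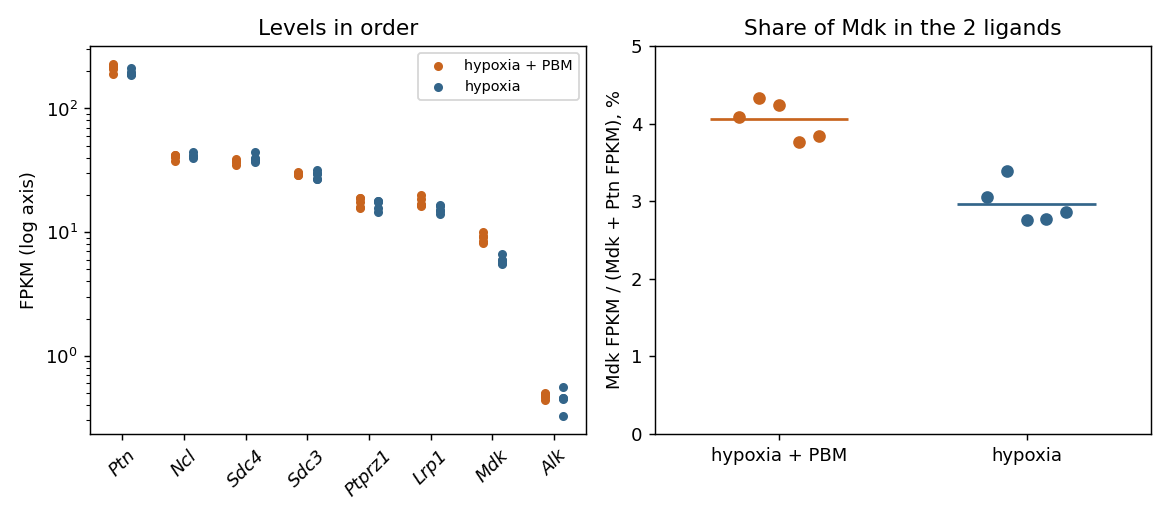
Left, FPKM (log axis) of the 8 genes in order of their hypoxia mean, 5 libraries per group, hypoxia + PBM (orange) left of hypoxia (blue); right, Mdk as a percentage of the summed FPKM of Mdk and Ptn in each library, with bars for group means. Ptn lies far above and Alk far below the other genes, and the Mdk share is 3.77% to 4.32% in hypoxia + PBM and 2.76% to 3.38% in hypoxia.

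Ptprz1, the receptor phosphatase of astrocytes and oligodendrocyte precursors, averaged 17.4 ± 1.60 FPKM in hypoxia + PBM and 16.7 ± 1.44 FPKM in hypoxia (SD, n = 5 each). Its libraries ran from 15.6 to 19.1 FPKM with a median of 17.5 FPKM in hypoxia + PBM, and from 14.7 to 17.9 FPKM with a median of 17.4 FPKM in hypoxia. The ranges overlapped over most of their width, and the log2 change of 0.052 had a 95% interval from -0.093 to 0.20. The interval thus reaches changes of either sign, and without hypoxia replicate 2 the log2 change was 0.0093. Alk, the receptor tyrosine kinase, was the lowest of the 8 genes, at 0.472 ± 0.0238 FPKM in hypoxia + PBM and 0.448 ± 0.0835 FPKM in hypoxia (SD, n = 5 each), with 102 to 160 reads per library. Hypoxia replicates 2 and 5 held both extremes of Alk, at 0.324 and 0.559 FPKM, and all hypoxia + PBM libraries lay between them. Its log2 change was 0.025 (95% interval -0.074 to 0.12), and without hypoxia replicate 2 the sign turned, to -0.0070.

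The log2 changes of the 2 syndecans had opposite signs, both with intervals that include 0. Sdc3, the heparan sulfate proteoglycan of neurons through which pleiotrophin acts on neurites, measured 28.9, 29.0, 30.5, 29.8 and 30.3 FPKM in hypoxia + PBM replicates 1 to 5. It measured 26.9, 26.8, 30.3, 29.6 and 31.5 FPKM in hypoxia replicates 1 to 5, so that the hypoxia libraries spread on both sides of the hypoxia + PBM libraries. The log2 change of Sdc3 was 0.035 (95% interval -0.064 to 0.13), and 0.0074 without hypoxia replicate 2 or 0.0088 without hypoxia replicate 1.
Sdc4, the more widely expressed syndecan that also sits in focal adhesions, measured 37.4, 37.6, 39.1, 35.2 and 36.7 FPKM in hypoxia + PBM replicates 1 to 5, against 39.7, 44.6, 39.1, 38.3 and 37.2 FPKM in hypoxia replicates 1 to 5. No hypoxia + PBM library exceeded the hypoxia median, but the ranges overlapped, and hypoxia replicate 2 lay above all others. The log2 change was -0.093 ± 0.046 (SE; 95% interval -0.19 to 0.0070), the most negative of the 8 genes, and did not pass the adjusted threshold. It was -0.053 without hypoxia replicate 2, -0.025 with the mean level of endothelial markers as a covariate and -0.18 with that of striatal neuron markers, both described with the cell type markers.

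Lrp1, which takes up midkine together with many other ligands, measured 18.5, 16.3, 19.9, 17.0 and 16.7 FPKM in hypoxia + PBM replicates 1 to 5. It measured 14.8, 14.1, 15.1, 16.5 and 16.3 FPKM in hypoxia replicates 1 to 5. Only hypoxia + PBM replicate 2 fell below the highest hypoxia library, replicate 4. The log2 change was 0.19 ± 0.058 (SE; 95% interval 0.062 to 0.31, unadjusted), and 7.24% of all tested genes changed by at least this amount in either direction. It did not pass the adjusted threshold. Ncl averaged 40.7 ± 1.89 FPKM in hypoxia + PBM and 41.6 ± 1.94 FPKM in hypoxia (SD, n = 5 each), a log2 change of -0.029 (95% interval -0.12 to 0.060). Hypoxia + PBM replicate 3, at 37.4 FPKM, lay below the other 9 libraries, and without it the log2 change of Ncl was 0.00011.

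**Figure D3:**
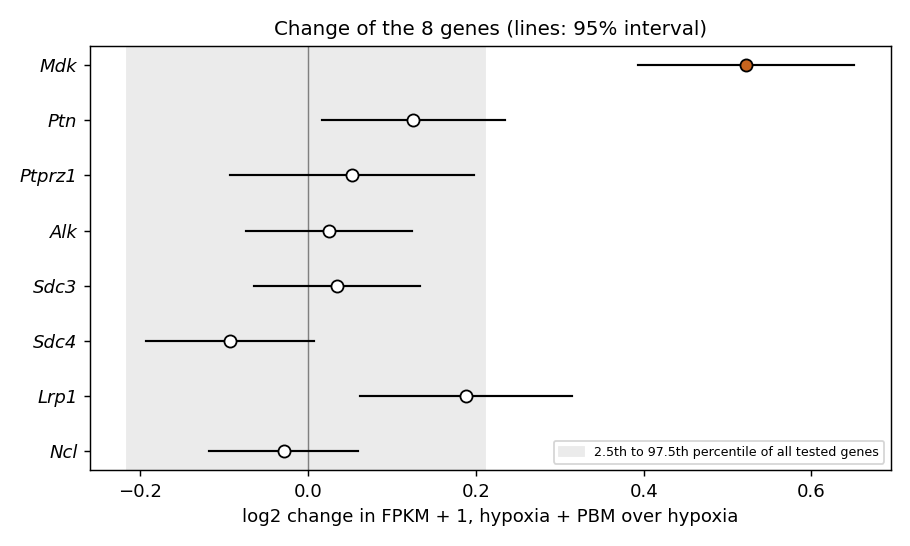
Log2 change of each gene, hypoxia + PBM over hypoxia, computed with 1 added to the FPKM; lines are 95% intervals for single genes from the limma-trend fit of 5 against 5 libraries, the filled point has an adjusted p under 0.05, and the grey band spans the central 95% of all tested genes, -0.22 to 0.21. Mdk at 0.52 is the one point outside the band.

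Levels could be set side by side per length. In hypoxia the order of mean FPKM was Ptn, Ncl, Sdc4, Sdc3, Ptprz1, Lrp1, Mdk and Alk. In both groups Ptn stood clear of Ncl, Sdc4 of Sdc3, Sdc3 of Ptprz1, Lrp1 of Mdk and Mdk of Alk, with no overlap of libraries. The neighbours Ncl and Sdc4 overlapped in both groups, as did Ptprz1 and Lrp1. Ptprz1 was above Lrp1 in 1 of 5 hypoxia + PBM libraries and in 5 of 5 hypoxia libraries. Lrp1 averaged 1.97 times the Mdk level in hypoxia + PBM and 2.58 times in hypoxia. The order, and the ratio of Ptn to Mdk, depend on the length the authors divided by. It was about 8851 bases for Ncl, 1678 for Ptn, 1039 for Mdk, 10312 for Ptprz1 and 8935 for Alk. The exons in GENCODE M21 together cover 10188, 3433, 1324, 14245 and 7755 bases for these genes, in this order. GENCODE M21 places no other gene over Mdk, Ptn, Ptprz1 or Sdc4, but lists genes on the opposite strand within Alk, Sdc3 and Lrp1. It also lists genes on the same strand, 4 within Ncl and 3 within Alk, whose reads the counting could split. No source used here states whether the counting used strand, so reads of these 3 genes and of their antisense partners cannot be told apart.

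Within groups, some receptor genes deviated together and others in opposite directions. After the group means were taken off, Sdc3 and Ptprz1 deviated together over the 10 libraries (r = 0.77), as did Sdc3 and Alk (r = 0.72) and Lrp1 and Ptprz1 (r = 0.65). Sdc4 and Alk (r = -0.77), Ncl and Lrp1 (r = -0.76) and Sdc4 and Sdc3 (r = -0.64) deviated in opposite directions. Mdk deviated the other way from Alk (r = -0.72), Lrp1 (r = -0.68) and Sdc3 (r = -0.64), and together with Sdc4 (r = 0.67). Mdk and Ptn correlated at 0.43. Lrp1 thus had a positive log2 change like Mdk, but tended to be low in those libraries of a group where Mdk was high. These r values are a description over libraries that share their depth and scaling.

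Levels of long and short genes were also compared in each library. For this, the median log2 level of genes of at least 5000 bases was set against that of genes under 2000 bases, each relative to the gene's mean over the 10 libraries. The difference was 0.023 ± 0.068 in hypoxia + PBM and -0.023 ± 0.066 in hypoxia (SD, n = 5 each), with overlapping libraries. With group means removed, Lrp1, counted over about 15224 bases, followed this difference at r = 0.98 (Spearman 1.0, n = 10 libraries; r = 0.99 without the 2 libraries farthest from the median). Of 14406 tested genes, 2 reached the r of Lrp1, itself included. Alk followed it at 0.72 and Ptprz1 at 0.63, whereas Mdk, at about 1039 bases, went against it at -0.71. Ncl also went against it, at -0.74, although its counted length was about 8851 bases. Without the 2 farthest libraries, one of them hypoxia + PBM replicate 3 where Ncl was lowest, r was -0.48 for Ncl, -0.63 for Mdk, 0.54 for Ptprz1 and 0.87 for Alk. These correlations share libraries and are a description. With the difference as a covariate, chosen after seeing the data, the log2 change of Lrp1 was 0.12 ± 0.028 (SE), against 0.19 ± 0.058 without it. Lrp1 then passed the adjusted threshold narrowly, in a fit that called 2.75% of all tested genes. Nothing is read from this pass, as Lrp1 was taken up with the comparison known and follows the covariate closely. In the same fit the log2 change of Mdk was 0.57 ± 0.051 (SE) and that of Ptprz1 was -0.0014.

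**Figure D4:**
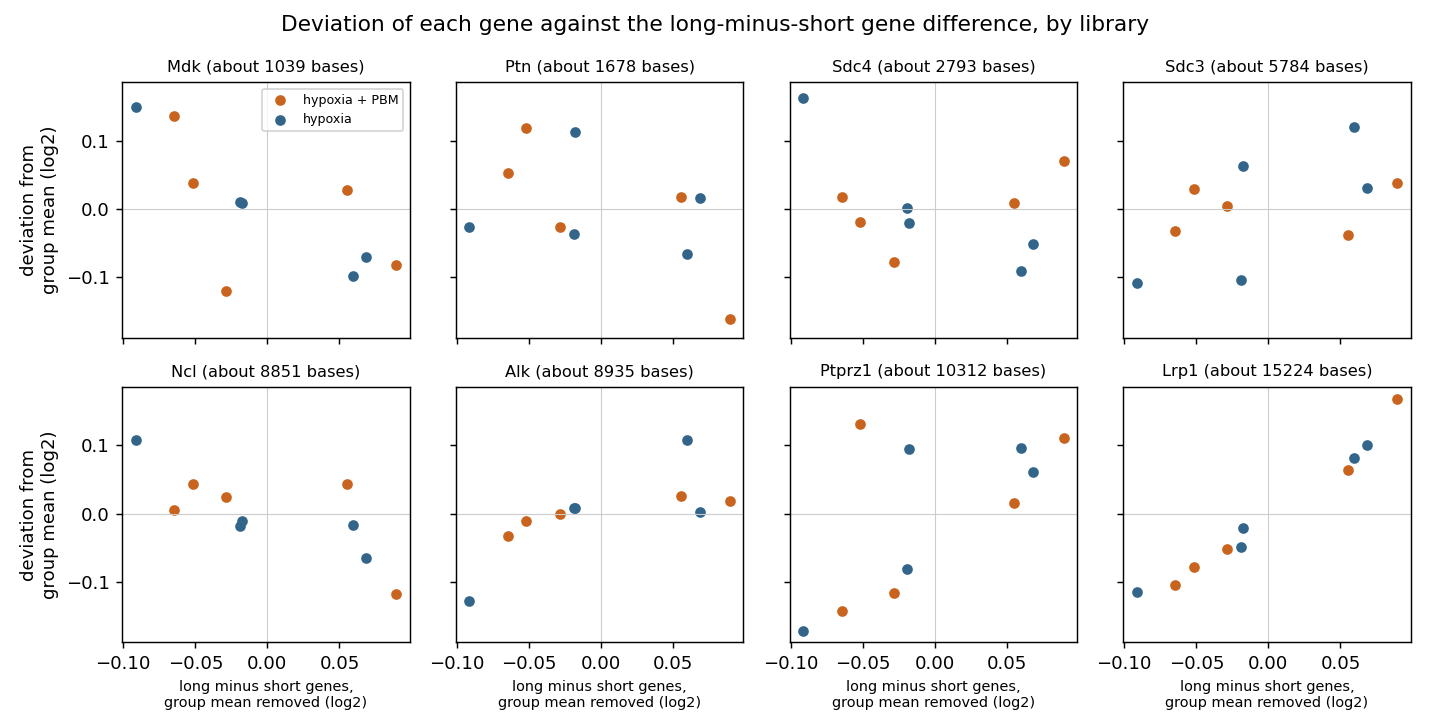
Deviation of each gene from its group mean (vertical, log2(FPKM + 1)) against the per-library difference of long and short genes with its group mean removed (horizontal, log2), for hypoxia + PBM (orange) and hypoxia (blue) libraries; panels are ordered by the length behind the FPKM. Lrp1 runs along the diagonal (r = 0.98), and Mdk runs the other way (r = -0.71).

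By likeness of pattern with group means removed, the 5 genes nearest to Mdk among 11246 compared over the 10 libraries were Snapc3 (r = 0.98), Rpp25l (0.98), Ascc1 (0.97), Cndp2 (0.95) and Eps8l3 (0.95). None of these 5 was called between the groups. The 5 nearest to Ptn were Add3 (r = 0.97), Oxct1 (0.96), Smpdl3a (0.94), Pllp (0.94) and Prdx6 (0.93), again with no call. These are the highest of many r values over 10 libraries and are given as a description.

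Among the other genes of the pathway, in the lists below, 1 passed the adjusted threshold, and it was lower. Of all tested genes 2.85% passed it, 1.7% lower. Of 16 other receptors and binding partners of midkine or pleiotrophin, among them further syndecans, integrins and lecticans, limma-trend called none, and limma-voom called none either. Over all tested genes, limma-voom called 4.12%, and 2819 of 14406 had an unadjusted p under 0.05 in either direction. In this list, 2 were higher and 0 lower by unadjusted p under 0.05. The smallest p belonged to the integrin subunit Itga4 (0.778 ± 0.0693 FPKM in hypoxia + PBM and 0.614 ± 0.116 FPKM in hypoxia, SD, n = 5 each; limma adjusted p = 0.175) and the proteoglycan agrin, Agrn (log2 change 0.13; limma adjusted p = 0.199). The list's median log2 change was 0.0070. Of the ALK ligands and the ALK relative, Alkal2 and Ltk were measured, at log2 changes of -0.046 and 0.097, and neither passed (limma adjusted p = 0.87 and 0.535; 0 at unadjusted p under 0.05, 0 by limma-voom).

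Among 14 genes for the relative, the partners and the substrates of PTPRZ1, limma-trend called 1 lower and 0 higher. The median log2 change was 0.061, with 9 changes positive and 5 negative. At unadjusted p under 0.05, 5 were higher and 2 lower. The called gene was Git1, a scaffold of small GTPase signalling and substrate of PTPRZ1, at 108 ± 5.86 FPKM in hypoxia + PBM and 124 ± 4.17 FPKM in hypoxia (SD, n = 5 each). Its log2 change was -0.20 ± 0.040 (SE; limma adjusted p = 0.0202), and its libraries did not overlap, at 99.9 to 116 FPKM against 119 to 129.7 FPKM. The call was lost without hypoxia replicate 1 (limma adjusted p = 0.054, the highest of the 10 fits that left out 1 library) and without hypoxia + PBM replicate 1. It was also lost with the replicate block (0.0519), the endothelial covariate (0.0808) and the striatal covariate (0.555), under which no gene at all was called. The related phosphatase Ptprg (log2 change 0.25; limma adjusted p = 0.0507) and the PTPRZ1 partner tenascin-R, Tnr (0.27; 0.079), both named after their values were seen, did not pass. By limma-voom on recovered reads, Ptprg, Tnr and the substrate Magi1 were called higher and Git1 lower.

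None of 18 tested chondroitin sulfate synthesis genes, which build the chains of PTPRZ1, passed limma-trend (2 higher and 0 lower at unadjusted p under 0.05), and limma-voom called 1, Xylt2. Xylt2, a xylosyltransferase that starts the chain, was at 5.73 ± 0.188 FPKM in hypoxia + PBM and 4.88 ± 0.390 FPKM in hypoxia (SD, n = 5 each; limma adjusted p = 0.0567), and the sulfotransferase Chst7 had a log2 change of 0.16 (limma adjusted p = 0.107). None of 14 syndecan partners and sheddases passed (2 higher and 0 lower at unadjusted p under 0.05). The protein kinase C gene Prkca, whose product binds syndecan-4, was at 20.1 ± 2.45 FPKM in hypoxia + PBM and 16.8 ± 1.23 FPKM in hypoxia (SD, n = 5 each; limma adjusted p = 0.09) and was the one called by limma-voom. The heparanase gene Hpse had a log2 change of 0.14 (limma adjusted p = 0.149).
None of 7 tested LDL receptor relatives passed either, Lrp1b and Lrp5 being nearest (log2 changes 0.13 and 0.11; limma adjusted p = 0.259 and 0.434; 0 at unadjusted p under 0.05, 0 by limma-voom). None of 10 nucleolar partners of nucleolin passed (0 higher and 1 lower at unadjusted p under 0.05, 0 by limma-voom). Npm1 and Nop56 had the smallest p there, with log2 changes of -0.13 and -0.091 (limma adjusted p = 0.176 and 0.275).

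**Figure D5:**
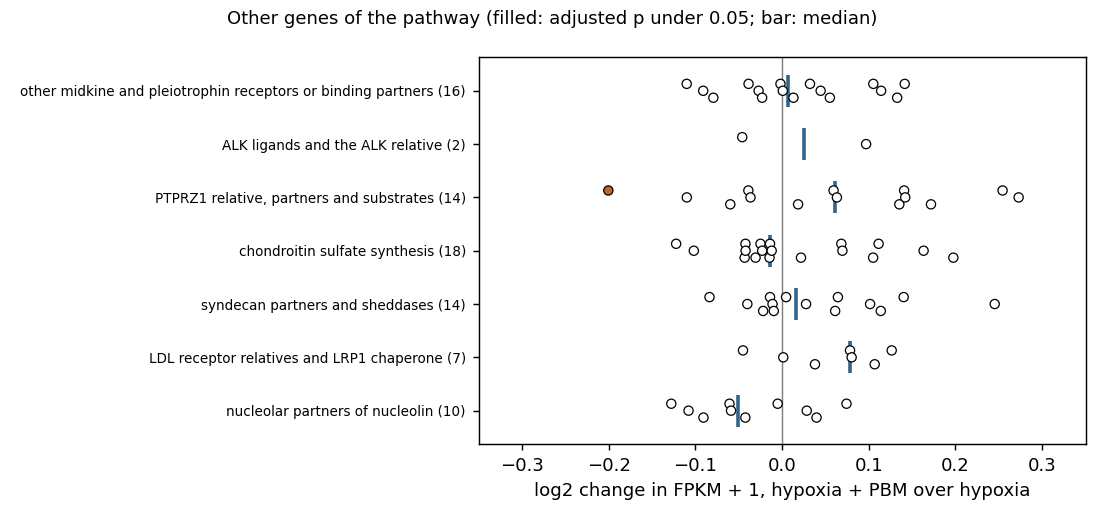
Log2 change, hypoxia + PBM over hypoxia, of each tested gene in the 7 lists of related genes (number of tested genes in brackets); blue bars are list medians, and the filled point, Git1 at -0.20, is the one with a limma adjusted p under 0.05. List medians lie between -0.051 and 0.078.

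Markers of cell types of the cortex were measured beside these genes. Markers of choroid plexus and of striatal neurons, which lie outside the cortex, were measured too. For comparison, 1.15% of all tested genes were called higher and 1.7% lower, and 2819 of 14406 had an unadjusted p under 0.05. The excitatory neuron markers of cortex were abundant, 8 of them summing to 1303 to 1366 FPKM in hypoxia + PBM and 1232 to 1300 FPKM in hypoxia. Of 10 endothelial markers 3 were called higher (Cldn5, Ly6c1 and Tek, log2 changes 0.37, 0.39 and 0.28; limma adjusted p = 0.0185, 0.0239 and 0.0403), and the list summed to 57.0 to 67.4 FPKM in hypoxia + PBM and 45.2 to 55.5 FPKM in hypoxia. The calls of Ly6c1 and Tek were lost in 3 and 7 of the 10 fits without 1 library (highest limma adjusted p = 0.0605 and 0.0904, both without hypoxia + PBM replicate 3). The replicate block ended both calls (0.0546 and 0.0567), and Tek was also lost with no filter (0.0529) and with the long-minus-short difference (0.0778). With group means removed, the endothelial mean followed Ptprz1 (r = 0.89), Lrp1 (0.84), Sdc3 (0.82) and Alk (0.81) over the 10 libraries and went against Mdk (-0.66). The pericyte and smooth muscle mean followed the same genes (Ptprz1 0.71, Lrp1 0.82, Sdc3 0.68 and Alk 0.72) and went against Ncl (-0.84). The microglia and oligodendrocyte means followed Ptn (0.87 and 0.72), and the inhibitory neuron mean went against Ptn (-0.63). The astrocyte mean followed Mdk (0.62), and Ptprz1 at 0.26. These r values were picked from many pairs of a list and a gene, and are a description. With the endothelial mean as a covariate, the log2 change of Mdk was 0.63 and that of Lrp1 was 0.048. The endothelial mean itself differed between the groups, at 2.37 to 2.56 log2 units in hypoxia + PBM and 2.10 to 2.41 in hypoxia. Its part and that of the group thus cannot be cleanly told apart in any fit that uses it.

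Astrocytes and oligodendrocyte precursors express Ptprz1 and Ptn. Of 10 astrocyte markers, 2 were called higher, Aldh1l1 (log2 change 0.27; limma adjusted p = 0.00481) and Slc4a4 (0.28; 0.0175), while 5 of the 10 had negative changes and the list's median was -0.0054. At unadjusted p under 0.05, 3 were higher and 3 lower. The water channel gene Aqp4 and the connexin genes Gjb6 and Gja1, named after their values were seen, had log2 changes of -0.28, -0.27 and -0.14 and did not pass. The astrocyte list summed to 800 to 879 FPKM in hypoxia + PBM and 798 to 878 FPKM in hypoxia. Of 8 precursor markers, only the proteoglycan Cspg4 was called higher (1.43 ± 0.231 FPKM in hypoxia + PBM and 0.912 ± 0.135 FPKM in hypoxia, SD, n = 5 each; limma adjusted p = 0.0225, and 0.0576 without hypoxia + PBM replicate 1). The precursor list had a median log2 change of 0.091, with 6 changes positive and 2 negative. At unadjusted p under 0.05, 2 precursor markers were higher and 0 lower. All 12 striatal medium spiny neuron markers were called lower, with a median log2 change of -0.99, among them Ppp1r1b (-0.95), Six3 (-0.88), Syndig1l (-1.19) and Gpr6 (-1.10). Of the 10 fits that left out 1 library, Pde10a kept its call in 4, Adora2a in 6, Tac1 in 7 and Rgs9 in 8, and the other 8 markers in all 10. The replicate block also ended the calls of Adora2a and Pde10a (limma adjusted p = 0.057 and 0.0519), and the long-minus-short difference did so too (0.0555 and 0.07). With the endothelial mean as a covariate all 12 striatal calls were lost (limma adjusted p = 0.116 to 0.191). In that fit Aldh1l1 was the one astrocyte, precursor or endothelial marker named here that kept its call. Cldn5, Ly6c1 and Tek are part of the endothelial mean, so that fit cannot serve as a check on them. With the striatal mean none of these markers kept a call, but limma then called 0 of 14406 genes, so this loss is not particular to them. The 12 striatal markers summed to 154 to 293 FPKM in hypoxia + PBM and 331 to 620 FPKM in hypoxia. The labels name prefrontal cortex only, and whether the pieces differed in striatal tissue was not tested. With the striatal mean as a covariate the log2 change of Mdk was 0.55 ± 0.11 (SE), which no longer passed, and that of Lrp1 was 0.028. That covariate separated the groups itself, at 2.52 to 3.45 log2 units in hypoxia + PBM and 3.57 to 4.47 in hypoxia, so its part and that of the group cannot be told apart.

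Choroid plexus and ependymal markers varied most between libraries of one group, from 12.96 to 477 FPKM in summed level in hypoxia + PBM and from 92.6 to 645 FPKM in hypoxia. The lowest, hypoxia + PBM replicate 4, also had the lowest Mdk of its group (8.17 FPKM), still above every hypoxia library. The lowest of the hypoxia libraries, replicate 1, had the second highest Mdk of its group (5.99 FPKM). Without hypoxia + PBM replicate 4, the log2 change of Mdk was 0.55. None of the 9 choroid plexus and ependymal markers was called (0 at unadjusted p under 0.05, 0 by limma-voom), nor were any of 8 oligodendrocyte, 8 microglia, 8 pericyte and smooth muscle, 8 meningeal fibroblast, 8 excitatory and 8 inhibitory neuron markers. In these 6 lists 0, 0, 2, 3, 2 and 2 genes were higher and 1, 1, 0, 0, 0 and 1 lower at unadjusted p under 0.05, and limma-voom called 1 pericyte gene and 2 excitatory neuron genes, all higher (Pdgfrb, Camk2a and Rorb, with log2 changes of 0.19, 0.12 and 0.20; limma adjusted p = 0.071, 0.0762 and 0.0916). The smallest p of the microglia and meningeal fibroblast lists belonged to Tmem119 (-0.21; limma adjusted p = 0.107) and Slc6a13 (0.36; 0.0729). The part of these cell types in the values of the 8 genes was not tested beyond the covariates given.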

How the data were processed

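RNA from prefrontal cortex was sequenced in 10 libraries. Per the labels' protocols, RNA was taken up in TRIzol and 1.4 ug of total RNA entered each library. The build GRCm39 and the tools HISAT2, HTSeq and fastp 1.0 are named per the submitters' processing notes, without settings or annotation. Per the file headers, the authors gave each gene an FPKM per library, without pooling. They also deposited each group's mean as a signal, the reads divided by DESeq2 size factors, per the file headers.

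Whole reads were solved from the FPKM and these group means (100% of values whole within 0.01 reads). Library totals over the listed genes were 31096252 to 35957148 reads in hypoxia + PBM and 29283937 to 35140072 in hypoxia. Reads served for depth, counting intervals and limma-voom. The main test was limma-trend (limma 3.58.1, R 4.3.3) on log2(FPKM + 1), group as the only term, over 14406 genes with at least 0.1 FPKM in at least 5 libraries, two-sided. Calls needed an adjusted p (Benjamini-Hochberg) under 0.05. It was tested on simulated data. All 8 members passed this filter. The members, lists and tests were chosen with earlier results of these data known. Named genes were the members, up to 4 called genes per list with the smallest p (or 2 where none was called), and the 5 genes most like Mdk and Ptn. Alternatives were another pseudocount (0.1), filters, upper-quartile scaling, limma-voom, array weights, a replicate block, marker covariates and leaving out each library. A covariate of long against short genes was added after seeing the data. Intervals on reads cover counting error only.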

Additional observations from a re-analysis of the deposited data

Results flagged for a closer look

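Ncl in hypoxia + PBM replicate 3 was 37.4 FPKM, and its gap to the next library of its group, relative to the range of that group, exceeded the 95% critical value of Dixon's test for 5 samples (0.71). It was the only such value among 16 groups of libraries examined (8 genes in 2 groups), where chance gives about 1 in 20.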

How the results depend on the processing

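The direction of Mdk, Ptn, Lrp1 (higher) and Sdc4 (lower) held under all alternatives run. These fits draw on the same 10 libraries, and Mdk was chosen on this comparison, so its passes are a description. Mdk passed the threshold in all but 1 of 20, with log2 changes from 0.49 to 0.63 (0.49 to 0.56 on leaving out 1 library). It lost the call with the striatal marker mean as a covariate (0.55). In that fit limma called 0 genes in all (896 at unadjusted p under 0.05) and 0 of the 8 genes (3 at unadjusted p under 0.05), and the log2 change of Ncl turned to 0.066. The cause was not tested. With the endothelial mean as a covariate, which itself differed between the groups, 57 genes were called. The signs of Ptprz1 (-0.13), Alk (-0.056), Sdc3 (-0.067) and Ncl (0.040) turned in that fit. With the long-minus-short gene difference, 396 of 14406 genes (2.75%) and 2 of the 8 listed here were called, Lrp1 (0.12) beside Mdk, and Ptprz1 (-0.0014), Alk (-0.0053) and Ncl (0.0042) turned. Leaving out 1 library gave 200 (without hypoxia replicate 1) to 538 called genes in place of 411, fewer by over 1.5 times also without hypoxia replicate 2 (265) or 5 (210) or hypoxia + PBM replicate 1 (210), 2 (268) or 3 (221). Ptprz1 then ranged from 0.0093 to 0.088, Sdc3 from 0.0074 to 0.064, Sdc4 from -0.12 to -0.053, Alk from -0.0070 to 0.052 and Ncl from -0.045 to 0.00011. Alk has no value under the filter of 1 FPKM. Replicate numbers are shared between groups, but same-numbered libraries correlated at -0.072 to 0.21 in their deviations from the group mean, so the numbers are not taken to pair them, and 1 of 5 correlated best with its own number. With the replicate block 256 genes were called, and Mdk, at 0.52, among them. Depth limits Mdk and Alk, which rest on 179 to 342 and 102 to 160 reads per library.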
